A study of Mus musculus with 4 samples.

Results

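Semaphorins are secreted or membrane-bound guidance proteins, and plexins and neuropilins are their receptors. Transcripts of 31 genes of this system, 20 semaphorins, 9 plexins and 2 neuropilins, were examined among 22869 gene symbols in cultured primary ductal cells of the mouse pancreas. The rule took every symbol of the form Sema3 to Sema7 or Plxna to Plxnd in the tables, with Nrp1 and Nrp2, and used no measured value. The gene family itself was picked with earlier results of these data known. A symbol with several RefSeq transcripts is shown by its most counted one, taken over the mean of the 4 libraries.

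Ductal cells came from adult C57BL/6 mice in which no recombination had been induced before isolation. The group labelled Hhex knockout carried floxed Hhex alleles and a tamoxifen-dependent Cre driven from Sox9. Its genotype is Sox9CreER;HhexL/L in the sample labels and HhexL/L;Sox9CreERT2 in the series text (2 libraries). The controls were littermates with the floxed alleles and no Cre (HhexL/L, 2 libraries). Cells of both groups received 500 nM 4-hydroxytamoxifen in culture for 4 days, so that recombination could take place only in cells that carried the Cre and had Sox9 promoter activity. No library carried the Cre without floxed alleles, and effects of the Cre and of Hhex loss cannot be told apart. The comparison asks which of these transcripts differ in ductal cells when Hhex, a homeobox transcription factor of liver and pancreas, is targeted.

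Semaphorins of class 3 are secreted and mostly bind a neuropilin, which holds the ligand, together with a plexin, which carries the signal. Classes 4 to 6 are transmembrane proteins that bind plexins directly, and the class 7 protein is anchored to the membrane by a lipid. The cytoplasmic part of a plexin inactivates small GTPases of the Ras and Rap family, which changes adhesion and the cytoskeleton. In epithelia these proteins are known for roles in branching, migration and barrier integrity, and in neighbouring tissue for guiding axons and vessels.

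The libraries held between 25257778 and 39582625 counts over all transcripts. Levels within a gene are given as CPM, counts scaled to library size with TMM factors, and levels between genes as the deposited RPKM, which also divide by transcript length. Hhex RNA averaged higher, not lower, in the group named for its loss. It stood at 23.6 and 39.0 CPM there, against 24.8 and 17.7 CPM in the controls, with an edgeR adjusted p of 0.742. Which exons were floxed is not stated in the sources read, so these counts may include RNA from outside the deletion. The group is therefore called "labelled knockout" throughout. Replicate 2 of the labelled knockout was the only library with high Xist, at 304 CPM against at most 1.75 CPM in the other 3. The Y-linked gene Ddx3y stood at 0.548 CPM in it, against 108 to 202 CPM in the other 3. Uty, also Y-linked, stood at 0.194 CPM, against 95.4 to 117 CPM. By these genes that library was female and the other 3 male. The groups were thus not balanced for sex, and sex and library cannot be told apart there. Of the markers fixed for other cell types, none passed the threshold in edgeR. The 14 ductal markers summed to between 15630 and 19013 CPM in each library, carried mostly by keratin genes, and Onecut1 had 0 counts in at least 1 library. Of these 14, 3 were higher in both labelled knockout libraries, 5 were lower in both and 6 overlapped. Over all transcripts, 19.1% were higher in both and 17% lower in both. Sox9, the driver gene of this Cre, reached 52.3 and 44.3 CPM in the labelled knockout, against 18.0 and 21.4 CPM in the controls (edgeR adjusted p = 0.0521). Muc1, an apical mucin gene, stood at 1.79 and 7.35 CPM in the labelled knockout, against 22.7 and 19.2 CPM in the controls (edgeR adjusted p = 0.303). Cftr, Cldn4, Spp1 and Epcam were the other ductal markers lower in both labelled knockout libraries, and Krt7 and Car2 the others higher in both. These 8 markers separate the same libraries as Sema3c does, and their part in the semaphorin values was not tested. The 10 endothelial markers summed to between 4.77 and 15.4 CPM, and of these Emcn had 0 counts in at least 1 library. In bulk RNA, fewer cells of a type and less RNA per cell cannot be told apart.

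Sema3c and Sema3e, both secreted semaphorin genes of chromosome 5, had the smallest edgeR p values among the 31 genes. Their upstream sequences are shown because these genes carry the main difference described here. They are the 250 bases before the RefSeq start site in assembly GRCm38.p6, both on the plus strand, at chr5:17574566-17574815 for Sema3c and at chr5:14025026-14025275 for Sema3e. Capitals mark the letters TAAT, the core that many homeodomain proteins bind, read on either strand.
Sema3c: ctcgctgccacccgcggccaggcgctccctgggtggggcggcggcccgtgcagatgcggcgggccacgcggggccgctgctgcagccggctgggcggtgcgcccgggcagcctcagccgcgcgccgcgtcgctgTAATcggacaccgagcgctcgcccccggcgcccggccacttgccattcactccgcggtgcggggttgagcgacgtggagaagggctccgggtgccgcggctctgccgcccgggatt
Sema3e: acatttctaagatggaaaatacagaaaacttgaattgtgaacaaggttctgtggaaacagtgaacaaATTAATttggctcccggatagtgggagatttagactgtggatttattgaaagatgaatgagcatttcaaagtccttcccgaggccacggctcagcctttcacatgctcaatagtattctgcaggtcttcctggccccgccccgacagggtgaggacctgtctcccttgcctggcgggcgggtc
The Sema3c window held TAAT once, beginning 116 bases before the start site. The Sema3e window held 2 overlapping matches, the first beginning 183 bases before the start site. Of 32851 RefSeq promoter windows of this length, 54.9% held these letters on either strand, so a match is common and only describes the sequence. The windows differ in base composition, with 78.4% G and C for Sema3c and 48.0% for Sema3e, against a median of 52.4% over all windows. RefSeq promoters were matched for 26 of the 31 genes.

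Levels ranged widely among the members. Sema3c had the highest mean RPKM, 60.4 over the 4 libraries, which placed it at rank 652 of 22869 genes. Plxnb2, which encodes plexin B2, followed at 39.4 RPKM and Sema3f at 14.0 RPKM. In all, 10 genes had a mean above 3 RPKM, 3 lay between 1 and 3 RPKM, and 18 lay below 1 RPKM. The RPKM ranges over libraries of neighbours in this order overlapped, except between Plxnb2 and Sema3f and between Sema3f and Plxnb1. The order depends on which transcripts are summed for a gene. With RPKM summed over all transcripts of a symbol, Plxnb2 stood at 78.4 and came before Sema3c. Nrp2 then stood at 24.2 and moved up to rank 3 from rank 8. Transcripts of both genes had near-equal counts, such as 13293 and 13280 for Plxnb2 in replicate 1 of the labelled knockout. Such sums may count the same reads more than once and grow with the number of transcripts listed.

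**Figure D1:**
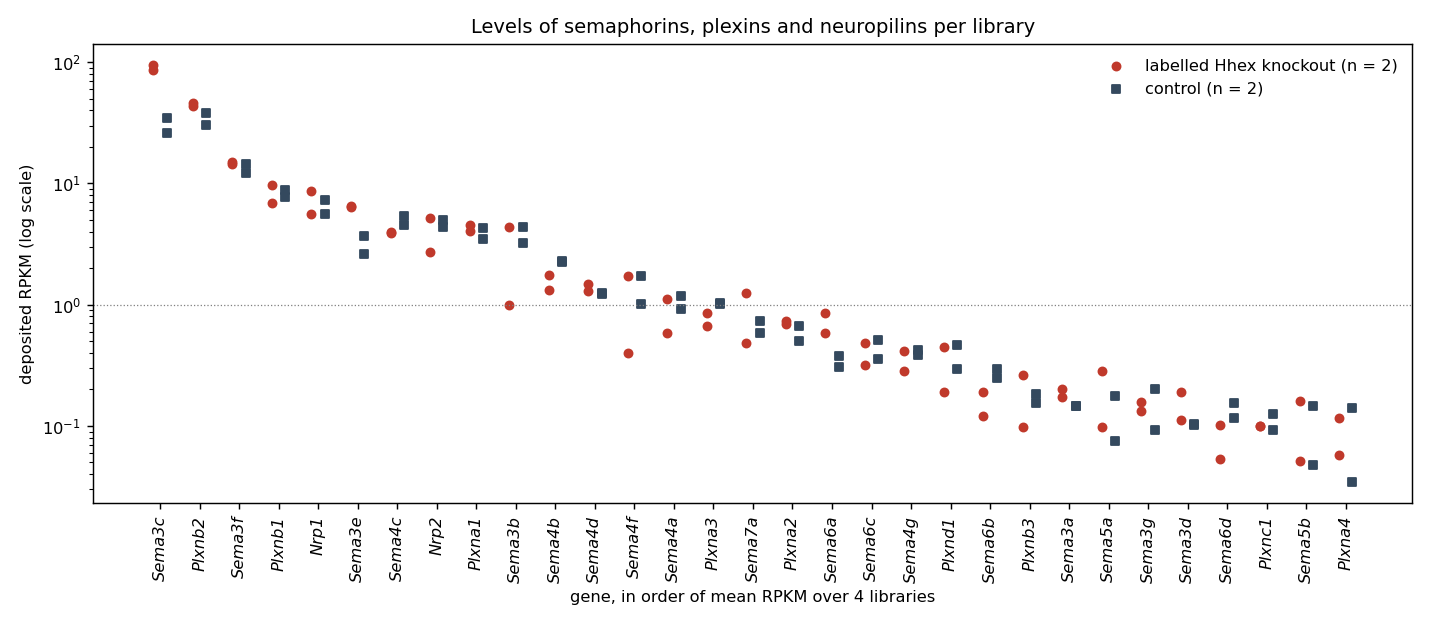
Deposited RPKM (log scale) of each of the 31 genes, in order of their mean, with 1 point per library (circles, labelled knockout; squares, control; n = 2 each). The dotted line marks 1 RPKM, below which the means of 18 genes lie. Sema3c has the highest mean, 60.4 RPKM.

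All 31 genes were tested, and 1 was called, Sema3c, which was higher in the labelled knockout. No gene was called lower by edgeR at an adjusted p of 0.05. DESeq2 also called none lower and 2 higher, Sema3c and Sema3e, where 2.17% of its 16887 transcripts with an adjusted p were called. DESeq2 gave no adjusted p for 6 of the 31 genes, all low in counts. In edgeR 2 genes had negative fold changes with an unadjusted p below 0.05. Of the 20949 transcripts tested in the whole table, 0.129% were called higher and 0.0477% lower, or 0.177% in either direction. At an unadjusted p of 0.05, 5 of the 31 genes passed (16.1%), against 7.47% of all transcripts. In 13 genes (41.9%) the groups did not overlap, against 36.1% of all transcripts, which is close to the background. In 8 of these both labelled knockout libraries were above both controls, an order that 19.1% of all transcripts showed, and in 5 both were below, as in 17% of all transcripts. The median log2 fold change was -0.06 over the 31 genes and -0.0089 over all transcripts. The libraries came from separate animals as far as the labels tell, and n = 2 a group limits the precision of every value.

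Sema3c encodes a secreted semaphorin that binds neuropilins 1 and 2 and is known for patterning the cardiac outflow tract and for growth of branching epithelia. It had 20045 and 19368 counts in the labelled knockout libraries, against 5032 and 5513 in the controls. Scaled, it stood at 537 and 625 CPM in the labelled knockout, against 183 and 224 CPM in the controls. The groups were far apart relative to their spread: the lower labelled knockout library was 2.40-fold above the higher control, while libraries of a group differed by at most 1.22-fold. Sema3c averaged 581 ± 62.1 CPM in the labelled knockout and 203 ± 28.4 CPM in the controls (SD, n = 2 each). It rose 2.86-fold, with a 95% interval of 2.10 to 3.89 (log2 fold change 1.51 ± 0.19, SE, edgeR adjusted p = 0.0471).

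This call was the one nearest to the threshold, rank 37 by p among the 37 transcripts called, and its p depended on the processing more than its size did. Over 14 alternatives that kept every library, the log2 fold change lay between 1.45 and 1.58, and 7 called Sema3c while 7 did not. Adjusted p ran from 7.126e-14 with DESeq2 to 0.360 in edgeR with a covariate for how much of each library fell in transcripts, an alternative chosen after seeing the data. It was 0.0827 with 1 transcript per gene, where isoforms that share reads are not tested separately. With each library left out, the log2 fold change was 1.37 to 1.70, and the call was lost without control replicate 1 (edgeR adjusted p = 0.304) and without control replicate 2 (edgeR adjusted p = 0.168).

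**Figure D2:**
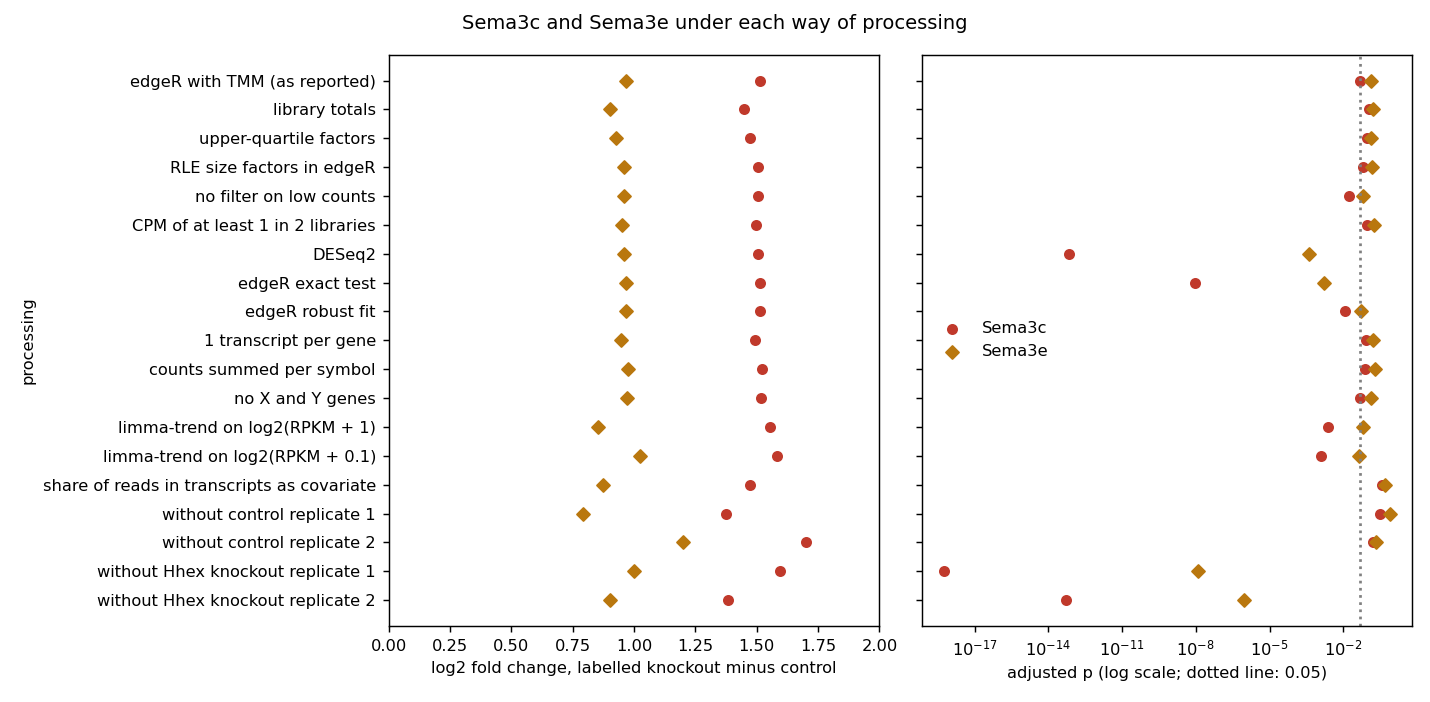
Log2 fold change, labelled knockout minus control (left), and adjusted p on a log scale (right), of Sema3c (circles) and Sema3e (diamonds) under the reported fit and 18 alternatives. The Sema3c values stay between 1.37 and 1.70, while its adjusted p falls on both sides of the dotted line at 0.05.

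Sema3e, whose product binds plexin D1 without a neuropilin and is known for repelling vessels, stood at 55.2 and 59.4 CPM in the labelled knockout, against 25.6 and 33.0 CPM in the controls. Both labelled knockout libraries were above both controls, by at least 1.67-fold. The fold change of 1.96 (95% interval 1.49 to 2.58) missed the threshold in edgeR (adjusted p = 0.134). It passed with DESeq2 (adjusted p = 0.00039), with the edgeR exact test (adjusted p = 0.0017) and with limma-trend on log2(RPKM + 0.1) (adjusted p = 0.0421), and missed in the other 11 alternatives with all libraries. The exact test called 1.29% and that limma fit 1.05% of all transcripts. With each library left out, the log2 fold change of Sema3e lay between 0.79 and 1.20. Sema3e was called without either labelled knockout library, in fits with many calls over the whole table. It missed the threshold without either control library.

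Sema3f, a ligand of neuropilin 2, was the second most abundant semaphorin and stood at 62.1 and 67.2 CPM in the labelled knockout, against 58.5 and 64.0 CPM in the controls. These values overlapped, and the 95% interval of the fold change was 0.837 to 1.33. Sema3b, a relative that also signals through neuropilins, stood at 18.4 and 4.35 CPM in the labelled knockout, against 15.1 and 18.8 CPM in the controls. Only replicate 2 of the labelled knockout was low, and without that library the log2 fold change was 0.10. Without replicate 1, where the low library stands alone for its group, edgeR gave -1.98 (adjusted p = 1.147e-15).

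Sema3a, the neuropilin 1 ligand that repels axons, stood at 1.69 and 1.52 CPM in the labelled knockout, against 1.35 and 1.26 CPM in the controls. Sema3d, a class 3 gene studied in heart and vessels, stood at 1.58 and 0.968 CPM in the labelled knockout, against 0.947 and 0.892 CPM in the controls. Neither passed in edgeR (adjusted p of 0.958 and 0.944), and no library held more than 63 counts of either gene. Sema3g, a class 3 gene known from vessels, had 23 and 24 counts in the labelled knockout, against 29 and 11 in the controls, and the groups overlapped.

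The 4 class 3 genes whose labelled knockout libraries were both above both controls, Sema3a, Sema3c, Sema3d and Sema3e, are the 4 that lie on mouse chromosome 5. This was noticed after the values were seen, and 19.1% of all transcripts showed that order of libraries. Sema3d and Sema3a barely separated, with gaps of 1.02-fold and 1.12-fold, and the labelled knockout libraries differed by 1.63-fold in Sema3d. In the RefSeq gene order they follow each other as Sema3d, Sema3a, Sema3e and Sema3c, with 18 other protein-coding genes between the first and the last. Of these 18, 8 were in the tables, and 1, the calcium channel subunit gene Cacna2d1, had at least 100 counts in every library. Cacna2d1, chosen after its values were seen, stood at 10.5 and 17.8 CPM in the labelled knockout, against 13.0 and 10.5 CPM in the controls (edgeR adjusted p = 0.933). Hgf, the ligand of Met, lies between Cacna2d1 and Sema3c and had 7 and 11 counts in the labelled knockout, against 21 and 2 in the controls. The class 3 genes on other chromosomes, Sema3b, Sema3f and Sema3g, had overlapping groups.

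Sema3c made up more of the semaphorin RNA in the labelled knockout. It held 69.5% and 73.4% of the summed semaphorin RPKM in the labelled knockout libraries, against 45.0% and 49.0% in the controls. The sum over all 20 semaphorins was 123 and 129 RPKM in the labelled knockout, against 58.3 and 70.4 RPKM in the controls. Without Sema3c, the other 19 summed to 37.6 and 34.3 RPKM in the labelled knockout, against 32.1 and 35.9 RPKM in the controls. By RPKM these groups overlapped. Summed as CPM, all 20 came to 738 and 823 in the labelled knockout, against 363 and 410 in the controls. Sema3c held 537 and 625 of these, against 183 and 224. The CPM left for the other 19 was slightly higher in both labelled knockout libraries, so the overlap depends on the measure. Sema3e is among these 19, at 55.2 and 59.4 CPM in the labelled knockout, against 25.6 and 33.0 CPM in the controls. With Sema3e also taken out, the CPM left was lower in both labelled knockout libraries. The ratio of Sema3c to Sema3f, which share a class and a secreted form, was 5.92 and 6.37 in the labelled knockout, against 2.15 and 2.39 in the controls. With 2 libraries a group these sums were not tested.

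**Figure D3:**
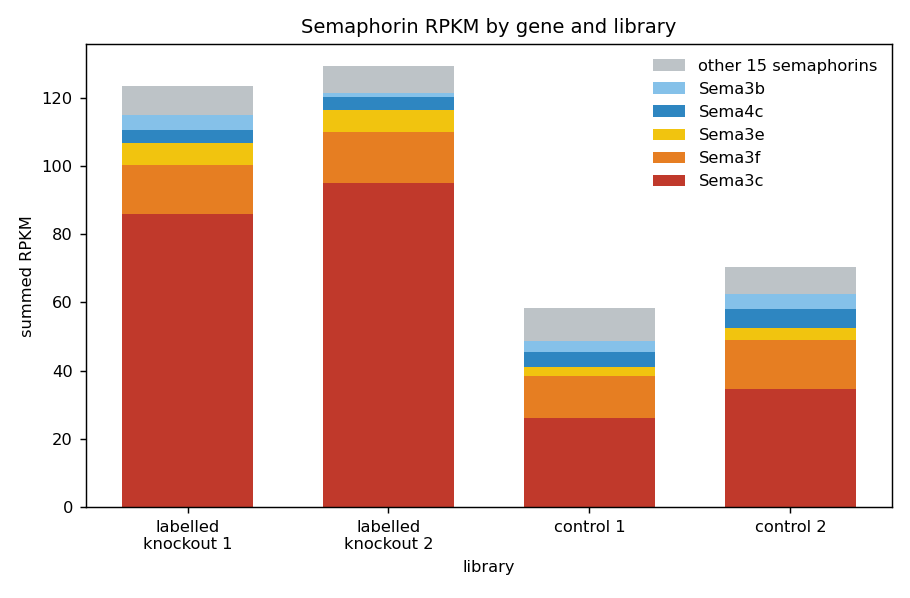
Summed RPKM of semaphorin genes in each library, stacked by gene, with the 15 least abundant joined. Sema3c takes 69.5% and 73.4% of the bar in the labelled knockout libraries, against 45.0% and 49.0% in the controls, and the rest of each bar sums to between 32.1 and 37.6 RPKM.

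A mesothelial marker was higher in the same libraries as Sema3c. Msln, which encodes mesothelin and headed the mesothelial list, stood at 3139 and 4486 CPM in the labelled knockout, against 1584 and 2013 CPM in the controls (edgeR adjusted p = 0.269). The other 5 mesothelial markers summed to 1.98 and 4.06 CPM in the labelled knockout, against 3.93 and 1.91 CPM in the controls, so that the list apart from Msln was low and overlapped. The 10 fibroblast and stellate markers summed to 9.54 and 11.9 CPM in the labelled knockout, against 25.8 and 21.7 CPM in the controls. Sparc, a matrix protein gene, made up most of that gap, and Lum had 0 counts in at least 1 library. In the labelled knockout Sparc stood at 4.53 and 3.48 CPM, against 12.0 and 13.1 CPM in the controls (edgeR adjusted p = 0.0609). In 3 of the 10 fibroblast markers the labelled knockout was below both controls, and the other 7 overlapped, against 17% of all transcripts that were below both controls. Of 10 neuron and Schwann cell markers, 2 were higher in both labelled knockout libraries, 1 was lower in both and 7 overlapped. These counts are near the background, where 19.1% of all transcripts were higher in both and 17% lower in both. S100b, a glial marker, stood at 1.98 and 1.61 CPM in the labelled knockout, against 0.437 and 0.649 CPM in the controls (edgeR adjusted p = 0.448). Tubb3, a neuronal tubulin gene, stood at 2.14 and 1.58 CPM in the labelled knockout, against 1.28 and 0.689 CPM in the controls (edgeR adjusted p = 0.786). That list summed to 35.3 and 9.06 CPM in the labelled knockout, against 17.6 and 11.1 CPM in the controls, with Stmn2 its highest member. The part of these cells in the semaphorin values was not tested.

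Class 4 semaphorins are transmembrane ligands, several of which bind plexins of the B family. Sema4b stood at 8.68 and 6.97 CPM in the labelled knockout, against 12.4 and 11.8 CPM in the controls. The groups did not overlap, and the log2 fold change of -0.63 ± 0.20 (SE) had an unadjusted p of 0.015 and an edgeR adjusted p of 0.458. Sema4c, a ligand of plexin B2, stood at 18.8 and 19.9 CPM in the labelled knockout, against 24.4 and 26.9 CPM in the controls. It too was separated between groups, with a log2 fold change of -0.40 ± 0.15 (SE, edgeR adjusted p = 0.599). Neither gene passed in any alternative that kept every library, where the lowest adjusted p was 0.351 for Sema4b, with DESeq2, and 0.406 for Sema4c, in edgeR with a stricter filter. Sema4b passed without replicate 1 of the labelled knockout (edgeR adjusted p = 0.00426).

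Sema4d, the ligand of plexin B1 first known as the lymphocyte antigen CD100, stood at 8.25 and 7.55 CPM in the labelled knockout, against 7.51 and 7.18 CPM in the controls. Its groups were separated by only 1.01-fold, with a 95% interval of the fold change of 0.777 to 1.49. Sema4a, a ligand best known from immune cells, stood at 4.50 and 2.48 CPM in the labelled knockout, against 5.32 and 3.89 CPM in the controls. The macrophage and myeloid list, whose cells also express Sema4a and Sema4d, summed to 127 and 213 CPM in the labelled knockout, against 164 and 148 CPM in the controls, and overlapped. Its highest member was Cd14, at 108 and 205 CPM in the labelled knockout, against 151 and 135 CPM in the controls. Cd68 came next, at 16.2 and 3.94 CPM, against 7.36 and 10.8 CPM. Csf1r and Ptprc had at most 1.42 and 0.802 CPM in any library. Of the 9 markers, 2 were lower in both labelled knockout libraries (17% of all transcripts were), 0 were higher in both and 7 overlapped. The part of such cells in Sema4a and Sema4d was not tested. Sema4g stood between 1.55 and 2.59 CPM in all libraries, with overlapping groups.

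Class 6 semaphorins are transmembrane ligands of A plexins. Sema6a stood at 5.06 and 7.81 CPM in the labelled knockout, against 3.64 and 2.76 CPM in the controls. Both labelled knockout libraries were higher, and the log2 fold change of 1.00 ± 0.31 (SE) had an unadjusted p of 0.0138 and an edgeR adjusted p of 0.454. It was called only without replicate 1 of the labelled knockout (edgeR adjusted p = 0.00039), among the alternatives run. Sema6b stood at 0.589 and 0.968 CPM in the labelled knockout, against 1.60 and 1.26 CPM in the controls. Sema6d stood at 0.429 and 0.871 CPM in the labelled knockout, against 1.38 and 0.973 CPM in the controls. Both pairs were separated downward with at most 44 counts a library, and their edgeR adjusted p values were 0.843 and 0.889. Sema6c stood between 1.19 and 2.04 CPM with overlapping groups.

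**Figure D4:**
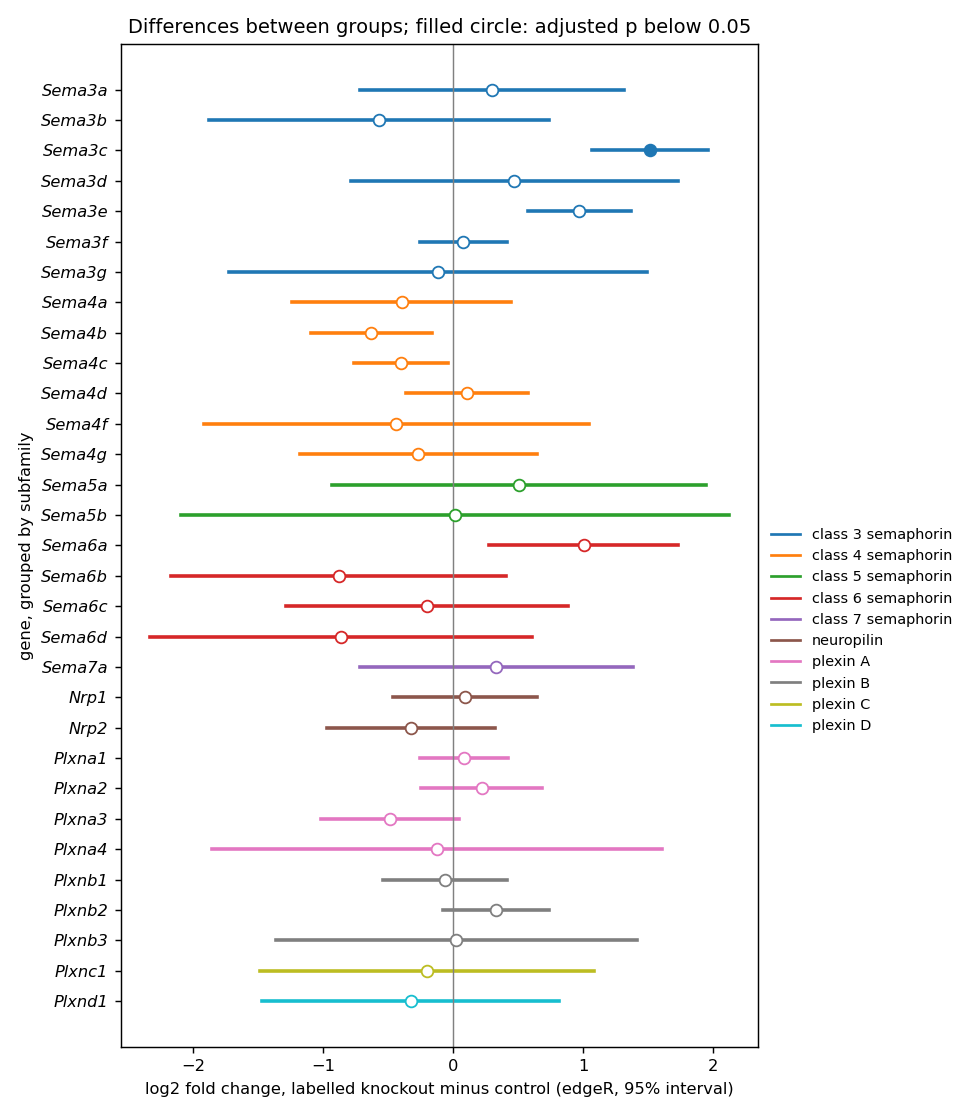
Log2 fold change, labelled knockout minus control, of each of the 31 genes, with its 95% interval from edgeR and coloured by subfamily. The filled circle is Sema3c at 1.51, the only gene with an adjusted p below 0.05, and wide intervals belong to genes with few counts such as Sema5b.

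Sema7a, which encodes the lipid-anchored semaphorin that binds integrin beta 1 and plexin C1, stood at 5.20 and 2.10 CPM in the labelled knockout, against 2.70 and 3.12 CPM in the controls. The 2 controls lay between the 2 labelled knockout libraries. The class 5 genes carry thrombospondin repeats. Sema5a stood at 3.91 and 1.42 CPM in the labelled knockout, against 2.70 and 1.05 CPM in the controls, and Sema5b had between 7 and 30 counts in every library. Groups of both class 5 genes overlapped.

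None of the 11 receptor genes was called by edgeR or DESeq2, and none had an unadjusted edgeR p below 0.05. Neuropilins hold class 3 semaphorins and also the growth factor VEGF-A. Nrp1 stood at 42.2 and 67.7 CPM in the labelled knockout, against 46.5 and 56.8 CPM in the controls, with a 95% interval of the fold change of 0.723 to 1.57. Nrp2 stood at 44.3 and 24.5 CPM in the labelled knockout, against 47.6 and 38.7 CPM in the controls (edgeR adjusted p = 0.920). Replicate 2 of the labelled knockout was the library with the most Nrp1 and the least Nrp2. The ratio of Nrp2 to Nrp1 by RPKM was 0.923 and 0.318 in the labelled knockout, against 0.899 and 0.599 in the controls. Without replicate 1 of the labelled knockout Nrp2 passed in edgeR (adjusted p = 2.189e-05), and without replicate 2 its log2 fold change was 0.019.

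Nrp2 was listed with 6 RefSeq transcripts, 4 of which had near-equal counts. These 4 had 1654 or 1655 and 759 counts in the labelled knockout libraries, against 1306 and 955 in the controls. The other 2 had 857 and 403 counts in the labelled knockout, against 764 and 505 in the controls. They share exons, and how shared reads were assigned is not stated in the sources read, so the 6 are not independent. None passed, with log2 fold changes between -0.42 and -0.33. The 49 transcripts of the 31 genes were all tested, and 8 genes had several.

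Plexins of the B family made up most plexin RNA. Plxnb2 stood at 356 and 390 CPM in the labelled knockout, against 273 and 321 CPM in the controls. The groups did not overlap, but the gap of 1.11-fold was smaller than the 1.18-fold difference between the controls, and edgeR gave a fold change of 1.26 (95% interval 0.949 to 1.66, adjusted p = 0.767). Plxnb1, the Sema4d receptor, stood at 75.5 and 110 CPM in the labelled knockout, against 93.8 and 99.98 CPM in the controls, which lay between the labelled knockout libraries. Plxnb3, which binds Sema5a, had between 28 and 65 counts a library.

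**Figure D5:**
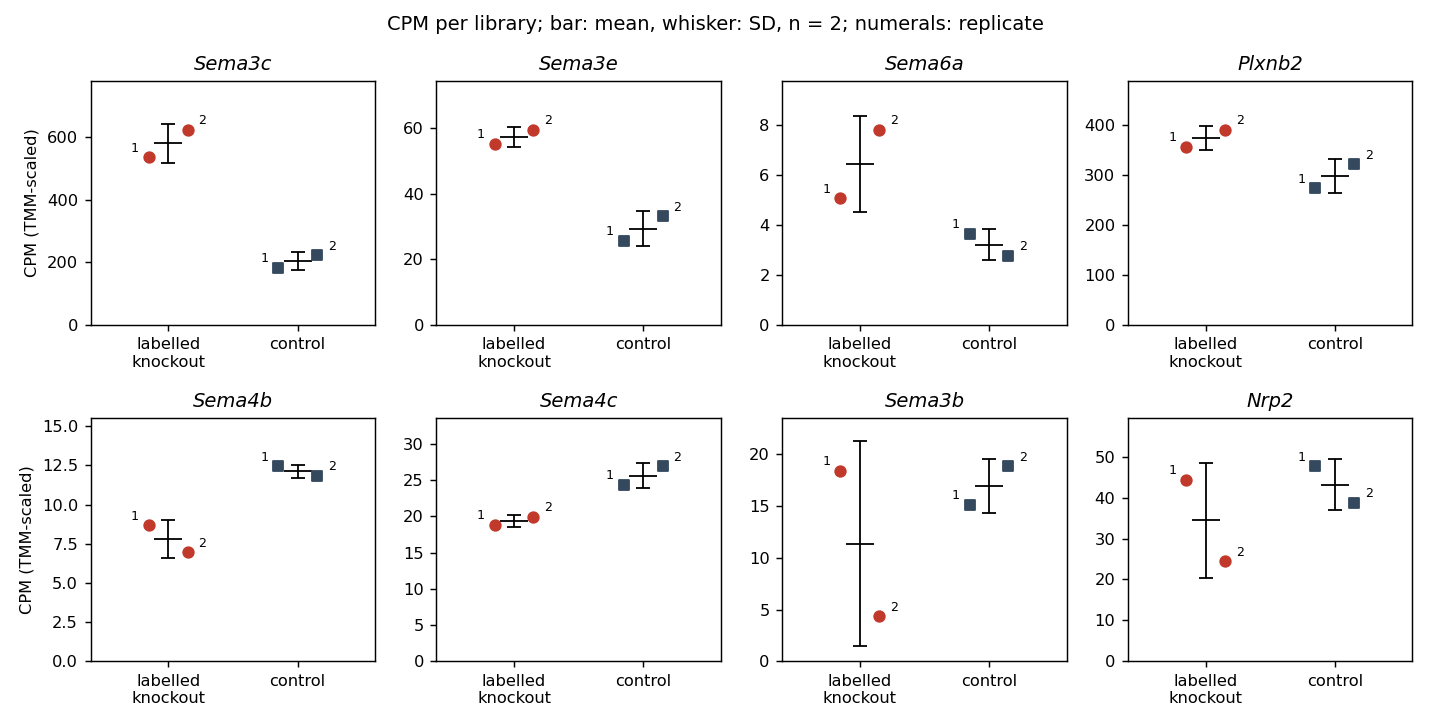
CPM in each library of 8 genes, labelled knockout (circles) left of control (squares), with the mean and SD of each group (n = 2) and the replicate number beside each point. Sema3c, Sema3e, Sema6a and Plxnb2 are higher in both labelled knockout libraries, Sema4b and Sema4c lower in both, and in Sema3b and Nrp2 replicate 2 of the labelled knockout stands apart at 4.35 and 24.5 CPM.

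Plexins of the A family are the usual signalling partners of neuropilins. Plxna1 stood at 51.8 and 48.6 CPM in the labelled knockout, against 44.4 and 50.4 CPM in the controls, and its 95% interval of the fold change was 0.838 to 1.34. Plxna2 stood at 10.2 and 10.1 CPM in the labelled knockout, against 7.83 and 9.61 CPM in the controls (edgeR adjusted p = 0.923). Plxna3, which lies on the X chromosome like Plxnb3, stood at 5.81 and 7.94 CPM in the labelled knockout, against 9.91 and 9.32 CPM in the controls. Both labelled knockout libraries were lower, with an edgeR adjusted p of 0.725, and the value for the library with high Xist was the closer one to the controls. Plxna3 passed only without that library (edgeR adjusted p = 0.0148), among the alternatives run.

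Plxnd1, the receptor of Sema3e and a partner for Sema3c, was low, at 1.66 and 4.13 CPM in the labelled knockout, against 4.55 and 2.68 CPM in the controls. Its mean of 0.351 RPKM placed it at rank 12768 of 22869 genes. Sema4f, a transmembrane semaphorin known from the nervous system, stood at 2.06 and 9.29 CPM in the labelled knockout, against 9.95 and 5.35 CPM in the controls. Plxna4 stood at 0.911 and 1.94 CPM in the labelled knockout, against 2.51 and 0.568 CPM in the controls. In Plxnd1, Sema4f, Plxna4 and Sema5b, control replicate 1 and replicate 2 of the labelled knockout were the 2 highest libraries, so that each group held a high and a low one. The endothelial markers, summed, stood at 4.77 and 10.8 CPM in the labelled knockout, against 15.4 and 5.27 CPM in the controls, the same order of libraries as in Plxnd1 and Sema4f. Olfactory and related receptor genes, which ductal cells are not known to use, summed to 135 and 183 CPM of the unscaled total in the labelled knockout, against 300.1 and 180.0 CPM in the controls, again in that order. The part of these in the low values was not tested. Plxnc1, the receptor of Sema7a, had between 21 and 34 counts a library.

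Genes that act with semaphorin receptors were counted together with other guidance families, from lists of 97 symbols, of which 93 were tested. The other guidance families, of Slits, netrins, ephrins and their receptors, made up 32 of the 93. None of the 93 was called by edgeR over all transcripts. An unadjusted edgeR p below 0.05 was found in 11 (11.8%, against 7.47% of all transcripts), 1 of which belongs to the other guidance families. DESeq2 called 4 of the 93, all cytoplasmic effectors, against 2.17% of its transcripts. In edgeR 9 were called without replicate 1 of the labelled knockout and 17 without replicate 2, against 7.58% and 7.89% of all transcripts in those fits. The groups did not overlap in 38 of the 93 (40.9%, against 36.1% of all transcripts), 9 of which belong to the other guidance families. The median log2 fold change of the 93 was -0.03.

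Among 36 cytoplasmic effectors, Fes, a tyrosine kinase linked to signalling downstream of plexin A1, had the smallest p. Fes stood at 5.63 and 4.32 CPM in the labelled knockout, against 10.1 and 13.5 CPM in the controls, and edgeR did not call its log2 fold change of -1.25 ± 0.24 (SE, adjusted p = 0.182). DESeq2 (adjusted p = 0.0053), the edgeR exact test (adjusted p = 0.0163) and limma-trend on log2(RPKM + 0.1) (adjusted p = 0.0495) called it lower. Rac1, the GTPase gene of lamellipodia, stood at 114 and 110 CPM in the labelled knockout, against 68.5 and 80.2 CPM in the controls (edgeR adjusted p = 0.326, DESeq2 adjusted p = 0.0369). Rras2, a GTPase of the R-Ras group on which plexins act, stood at 371 and 299 CPM in the labelled knockout, against 207 and 212 CPM in the controls (edgeR adjusted p = 0.328, DESeq2 adjusted p = 0.0151). The groups of all 3 genes were separated. Rnd1, a plexin-binding GTPase gene, was the 4th that DESeq2 called, with a log2 fold change of -0.75 (adjusted p = 0.0284). The list had 21 positive and 15 negative log2 fold changes, with a median of 0.05.

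Of 13 co-receptors, 4 had positive fold changes and 9 negative, with a median log2 fold change of -0.20, and none had an unadjusted p below 0.05 in edgeR or was called by DESeq2. Met, the hepatocyte growth factor receptor that associates with B plexins, stood at 141 and 85.8 CPM in the labelled knockout, against 78.4 and 80.5 CPM in the controls. Both labelled knockout libraries were higher, by little in replicate 2 (edgeR adjusted p = 0.717). L1cam, an adhesion molecule that partners neuropilin 1 in neurons, stood at 3.05 and 2.10 CPM in the labelled knockout, against 1.79 and 1.91 CPM in the controls. Ptprz1, a receptor phosphatase gene, had at most 1.17 CPM in any library.

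All 8 proteases of the processing list were tested, and 6 had positive fold changes with a median log2 fold change of 0.24. Pcsk6, a furin-like convertase gene, stood at 29.8 and 21.0 CPM in the labelled knockout, against 12.0 and 15.7 CPM in the controls, with a log2 fold change of 0.87 ± 0.23 (SE, edgeR adjusted p = 0.335). Adam10, a sheddase gene, stood at 42.7 and 43.4 CPM in the labelled knockout, against 36.3 and 35.6 CPM in the controls (edgeR adjusted p = 0.766). Adamts1 overlapped between groups. Of the 6 symbols listed for other ligands of neuropilins, 4 were tested. Vegfa, which encodes the endothelial growth factor that binds Nrp1, stood at 279.7 and 374 CPM in the labelled knockout, against 204 and 223 CPM in the controls (edgeR adjusted p = 0.458). Pgf, the placental growth factor gene, stood at 3.29 and 1.16 CPM in the labelled knockout, against 4.66 and 6.77 CPM in the controls (edgeR adjusted p = 0.546). Vegfa was thus higher and Pgf lower in both labelled knockout libraries, while Vegfc stood between 1.71 and 2.04 CPM in all 4.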

How the data were processed

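RNA of 4 libraries was sequenced, 2 labelled Hhex knockout and 2 controls, after preparation with the Illumina TruSeq RNA v2 kit, per the labels' protocols. The deposited counts are raw whole numbers per RefSeq transcript, for 28644 transcripts. The deposited RPKM values are scaled by the authors to transcript length and a library total. The submitters' processing notes name mm9 and edgeR. Aligner, counter and strand setting are not given in the sources used here, so overlapping and antisense genes may share reads.

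The main test used edgeR 4.0.16 in R 4.3.3: filterByExpr (minimum count 10, minimum total 15), TMM factors, quasi-likelihood F test, labelled knockout minus control, Benjamini-Hochberg adjustment over all 20949 transcripts tested, threshold 0.05. The script was tested on simulated data. SE is the absolute log2 fold change over the square root of F. CPM is taken over TMM-scaled totals of tested transcripts. Alternatives used DESeq2 1.42.0, limma 3.58.1, other factors, filters and rows, and each library left out. A covariate for the portion of each library's total that fell in transcripts was added after seeing the data. That portion, 48.6% to 61.8%, was worked out from the library totals that counts, RPKM and GENCODE M21 transcript lengths imply, and chromosomes, gene order and promoters came from RefSeq tables of GRCm38, so no mm9 coordinates are given. The members and lists were chosen with earlier results of these data known. Of each list of partner genes or other guidance genes, called genes and otherwise up to 3 with the smallest p were named. Marker lists not described with a result, for lymphocytes, acinar and endocrine cells, summed to between 1.13 and 5.50 CPM in any library. Their markers were lower in both labelled knockout libraries in 3 of 10, 2 of 7 and 0 of 8, and higher in both in 0, 0 and 1. Of all transcripts tested, 17% were lower in both and 19.1% higher in both. Replicate numbers were given within each group in accession order and pair no libraries. P-values from edgeR rest on the spread between 2 libraries a group and, in larger part, on spread borrowed across transcripts.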

Additional observations from a re-analysis of the deposited data

How the results depend on the processing

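No paired analysis was possible because the labels give no replicate numbers, and those used here follow accession order within each group and tie no libraries together. With 2 libraries a group and 2 residual degrees of freedom, calls rest largely on spread borrowed across transcripts, and genes with few counts have wide intervals. A fit without 1 library assumes that the lone library varies like the other group. The number of the 31 genes called higher was 1 as reported. It was 0 with library totals, upper-quartile factors, RLE size factors in edgeR, a CPM of at least 1 in 2 libraries, 1 transcript per gene, counts summed per symbol, or a covariate for the portion of reads in transcripts, chosen after seeing the data, and 2 with DESeq2, the edgeR exact test or limma-trend on log2(RPKM + 0.1). It ran from 0 to 3 with a library left out, and the number called lower, 0 as reported, from 0 to 3. The 3 called lower without replicate 1 of the labelled knockout were Nrp2, Sema3b and Sema4b, and the 2 without replicate 2 were Plxna3 and Sema4f. Partner genes called, 0 as reported, numbered 4 with DESeq2, 1 with the edgeR exact test, 1 with limma-trend on log2(RPKM + 0.1) and 0 to 17 with a library left out. Over the whole table, 27 transcripts were called higher and 10 lower as reported. These counts were 0 and 5 with library totals or upper-quartile factors, 19 and 7 with RLE factors, 0 and 4 with the CPM filter, 0 and 2 with 1 transcript per gene, 53 and 26 without a filter, 60 and 24 with a robust fit, 234 and 132 with DESeq2, and 174 and 96 with the exact test. Without replicate 1 of the labelled knockout they were 841 and 841 of 22176 tested, and without replicate 2 they were 1062 and 673 of 21986, so the members called there stand against many calls. Under the CPM filter 27 of the 31 genes were tested. Of the genes whose log2 fold change turned sign under an alternative, none was called as reported, and Nrp2, Sema3b and Sema4f were called in a fit without a library. With the covariate the log2 fold change was -0.012 for Plxna1, 1.22 for Plxna4, 0.036 for Plxnb1, 0.047 for Plxnc1, 0.27 for Plxnd1, 0.53 for Sema3g, 0.27 for Sema4f and -0.22 for Sema7a. With limma-trend on log2(RPKM + 0.1) it was 0.032 for Plxna4, -0.0041 for Plxnb3 and 0.020 for Sema3g. Plxnb3 had -0.039 with library totals, -0.018 with upper-quartile factors and -0.0029 with 1 transcript per gene. Sema5b had -0.067 with library totals, -0.045 with upper-quartile factors, -0.0032 with RLE factors, -0.0028 without a filter and -0.019 with 1 transcript per gene. With a library left out the log2 fold change ran from -0.31 to 0.37 for Nrp1, -0.85 to 0.019 for Nrp2, -0.0096 to 0.21 for Plxna1, -0.79 to 1.31 for Plxna4, -0.38 to 0.16 for Plxnb1, -0.91 to 0.56 for Plxnb3, -0.41 to 0.092 for Plxnc1, -1.15 to 0.16 for Plxnd1, -1.98 to 0.10 for Sema3b, -0.57 to 0.63 for Sema3g, -1.91 to 0.24 for Sema4f, -0.44 to 1.34 for Sema5a, -1.09 to 1.13 for Sema5b, -0.53 to 0.13 for Sema6c and -0.50 to 0.82 for Sema7a. The causes were not tested.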

Other observations

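Of 34 genes for Slit and Robo, netrins and their receptors, ephrins and Eph receptors, 32 were tested. None was called by edgeR or by DESeq2, and 1 had an unadjusted edgeR p below 0.05 (7.47% of all transcripts did). The median log2 fold change was -0.23, against -0.0089 over all transcripts, with 22 negative and 10 positive. Of the negative genes, Slit1, Slit3, Robo4, Unc5c and Dcc had at most 1.89 CPM in any library, and control replicate 1 was their highest. Others, such as Epha4 and Unc5b, had at least 37.3 CPM in every library. The part of low counts in this median was not tested. Neo1, which encodes the netrin receptor neogenin, stood at 43.0 and 46.9 CPM in the labelled knockout, against 33.5 and 37.5 CPM in the controls (edgeR adjusted p = 0.663). Robo1, a Slit receptor gene, stood at 4.23 and 2.84 CPM in the labelled knockout, against 2.30 and 1.54 CPM in the controls (edgeR adjusted p = 0.672). Epha7, an ephrin receptor gene, stood at 3.46 and 2.71 CPM in the labelled knockout, against 5.72 and 3.97 CPM in the controls (edgeR adjusted p = 0.728). The groups of these 3 genes did not overlap, as in 9 of the 32, where 36.1% of all transcripts did not overlap.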
